A study of Mus musculus with 24 samples.

Results

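The genes described here encode the proteins of the cytosolic ribosome. They were chosen by name: a protein-coding gene counted as a member when its mouse symbol was Rpl or Rps followed by a number and at most a short suffix, or was Rplp0, Rplp1, Rplp2 or Rpsa. The rule found 81 genes among the 55487 gene entries of the count tables, 50 of the large subunit and 31 of the small subunit, spread over 19 chromosomes. It left out cytosolic ribosomal proteins with other names, such as Rps3a1, Fau and Rack1, and the paralogs Rpl22l1 and Rpl7l1.

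Ribosomal protein genes are among the most strongly transcribed genes of a growing cell, and their products are needed in equal numbers to build a ribosome. Their messenger RNAs begin with a run of pyrimidines, the terminal oligopyrimidine tract, through which mTOR and LARP1 set how much of the message is translated. Blood stem cells keep protein synthesis low, and inherited loss of a copy of a ribosomal protein gene causes Diamond-Blackfan anemia, in which red cell production fails.

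The libraries came from mouse hematopoietic stem cells sorted into lysis buffer and amplified with Smart-seq2, a method that copies whole polyadenylated transcripts. The design held 3 comparisons: cells overexpressing the pseudouridine synthase PUS10 (PUS10-OE, 3 libraries) against an empty vector (Vector, 3), cells with microRNA miR139 knocked down (miR139-KD, 6) against a non-target control (NTC, 6), and the Pus10 knockout (Pus10-KO, 3) against wild type (Pus10-WT, 3). The labels give no age or strain, no construct or promoter, and no statement that libraries of 1 group came from separate animals. The p-values below therefore speak to how these libraries varied, and part of that variation may be technical.

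Between 9873587 and 47278996 counts per library were assigned to genes, and the Vector and PUS10-OE libraries, with at least 34205410 counts each, were deeper than all others, which had at most 18236236. All 8 stem cell marker genes looked at, among them Procr, Mecom and Hlf, had counts in every library. Pus10 itself stood at 257 ± 23.7 in TMM-normalised counts-per-million units (CPM; mean ± SD, n = 3) in PUS10-OE against 75.9 ± 20.2 in Vector, and was not lower in the libraries labelled Pus10-KO (35.2 ± 1.31) than in Pus10-WT (28.4 ± 7.68). Whole-gene counts do not show whether a transcript carries a deletion, so directions drawn from the knockout rest on its label. The level of the mature microRNA miR139 was not analysed here. In such bulk libraries, fewer cells of a type and less RNA per cell cannot be told apart.

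Of the 81 members, 73 had at least 1000 counts in every library (43 large, 30 small), and 78 entered the test in each comparison. The other 8 stayed under 2000 counts in every library, and they fall into 2 kinds. Rpl3l, Rpl10l and Rpl39l are tissue-restricted copies of Rpl3, Rpl10 and Rpl39, known from muscle and testis, and none of the 3 passed the filter on low counts. Rpl10l had 0 counts in all 24 libraries, Rpl3l reached at most 57 counts and Rpl39l at most 68. Their partners were abundant: on the scale of CPM per kilobase of the principal transcript, Rpl3 stood at 1300 ± 13.8 in Vector (n = 3), Rpl10 at 714 ± 8.68 and Rpl39 at 299 ± 20.4.

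The remaining low members are Rpl13a, Rpl23a, Rpl24, Rpl36al and Rps10. Rpl36al is a copy of Rpl36a, which had 8506 to 19825 counts in a library. The others are core proteins of the ribosome, yet Rpl24 had between 0 and 52 counts in a library and Rps10 between 17 and 189. In the GENCODE annotation the coding bases of these 5 genes lie largely within exons that also belong to another gene entry. The share was 97.5% in Rpl13a, 95.3% in Rpl36al, 92.1% in Rps10 (a read-through transcript with Nudt3), 83.4% in Rpl24 and 55.3% in Rpl23a. No other member had as much as 50% of its coding bases shared, and 72 shared none. In each library, 6.53 to 20.1% of tallied reads were set aside as ambiguous between genes. The part of this overlap in the low counts was not tested, and the values of these 5 genes are reported as uncertain.

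Per kilobase of the principal transcript, the counts of the members were far from equal. In the small subunit Rps27 was highest in Vector, at 2728 ± 122 CPM per kilobase (n = 3), and among members with at least 1000 counts Rps15a, whose principal transcript is the longest of all members, was lowest at 83.3 ± 1.78. In the large subunit Rpl13 led with 2413 ± 64.1 and Rpl22 came last with 77.4 ± 1.70. The leading genes were much the same in the other controls: Rps19 ranked 1 and Rpl13 ranked 2 in NTC, and Rpl13 ranked 1 and Rps14 ranked 2 in Pus10-WT. In Vector every library of Rps27 (at least 2621) lay above those of Rps18 (2443 ± 121, at most 2582) and Rpl13, while Rps18, Rpl13 and Rps19 (2310 ± 102), next in order, overlapped. These levels depend on which transcript is taken as the principal one. That of Rps15a has 5179 bases for a coding length of 390, and before division the gene stood at 431 ± 9.24 CPM in Vector. The files tally 0 reads as aligned to several places, and 293 annotated pseudogenes are named for members. Whether reads shared with pseudogenes were lost, and from which members, was not tested.

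The gene whose rank moved most plainly between the experiments was Rps27l, the copy of Rps27 known as a target of p53, a gene named because it belongs to a paralog pair. It ranked 14 per kilobase in Vector (1511 ± 98.8), 48 in NTC (1036 ± 179) and 60 in Pus10-WT (508 ± 117). Rps27, its partner, ranked 1, 5 and 3. No test was made across these controls, which differ in experiment and depth.

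Promoters were read from RefSeq windows (build GRCm38.p6), which cover 61 of the 81 members. A run of at least 8 pyrimidines between 10 bases before and 20 bases after the annotated start stood on the sense strand in 21 of the 61, or 34.4%, against 10.9% of 16446 other protein-coding genes and 8.70% of 69 mitochondrial ribosomal protein genes. On the antisense strand it was found in 4.92% of members and 12.5% of the others. The share was alike in both subunits, 34.2% of 38 large and 34.8% of 23 small subunit genes. Only 20 of the 61 RefSeq starts lie within 10 bases of the start of the principal GENCODE transcript, so a missing run may be a misplaced start.

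The 30-base windows below are those of the 7 windowed members that rose after miR139 knockdown, followed by 4 for contrast: Rpl34 and Rpl26, which had the lowest p-values with PUS10 overexpression, and Rpl4 and Rplp0, which had the lowest log2 fold changes among well-counted members after the knockdown. Capitals mark a run of at least 8 pyrimidines.
Rpl12 (chr2:32961702-32961731, plus strand): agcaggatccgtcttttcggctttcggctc
Rpl28 (chr7:4792955-4792984, plus strand): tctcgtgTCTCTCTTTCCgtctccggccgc
Rpl7a (chr2:26910797-26910826, plus strand): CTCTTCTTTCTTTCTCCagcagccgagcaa
Rps15 (chr10:80292421-80292450, plus strand): cagagctcgcgataactgcgcaagcgcagc
Rps18 (chr17:33955646-33955675, minus strand): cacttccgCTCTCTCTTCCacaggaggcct
Rps21 (chr2:180257369-180257398, plus strand): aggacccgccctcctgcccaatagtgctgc
Rpsa (chr9:120127756-120127785, plus strand): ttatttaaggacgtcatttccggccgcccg
Rpl34 (chr3:130730318-130730347, minus strand): CTTTTCCTCTTCCggggacggtgctcagag
Rpl26 (chr11:68901556-68901585, plus strand): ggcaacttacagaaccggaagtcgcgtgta
Rpl4 (chr9:64173377-64173406, plus strand): tttcctgtgggagcagccgggtagagagga
Rplp0 (chr5:115559457-115559486, plus strand): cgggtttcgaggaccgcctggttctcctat

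Rpl7a, Rpl28 and Rps18 carry runs of 17, 11 and 11 pyrimidines, whereas the windows of Rpl12 and Rps21 reach 7 and that of Rpsa 5. The run was thus present in 3 of the 7 windowed genes that rose with the knockdown and in 18 of the 54 other windowed members. Over the longer window of 250 bases before to 50 after the start, on either strand, 39.3% of members held CCGGAAG, letters bound by ETS factors, against 12.3% of other protein-coding genes and 36.2% of mitochondrial ribosomal protein genes. The letters AANATGGC, bound by YY1, were in 16.4% of members, 6.70% of other genes and 30.4% of the mitochondrial list. GGGCGG was in 59.0%, 48.4% and 47.8%, and TATAAA in 8.20%, 12.9% and 5.80%, in the same order. A match is a description of these letters and not a mapped site.

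Summed over all members, ribosomal protein messages took 5.79 ± 0.165% of gene counts in Vector (n = 3), 11.8 ± 0.439% in NTC (n = 6) and 9.28 ± 0.357% in Pus10-WT (n = 3). In PUS10-OE the share was 5.54% in replicate 1, 6.83% in replicate 2 and 6.75% in replicate 3. Replicate 1 lay below all 3 Vector libraries (5.67 to 5.98%) and the other replicates above them, so the groups overlapped. In miR139-KD the share ran from 11.9 to 13.6% with a median of 12.9%, overlapping the NTC range of 11.3 to 12.4%. In Pus10-KO it ran from 9.17 to 10.1%, across the Pus10-WT range of 8.92 to 9.63%.

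**Figure D1:**
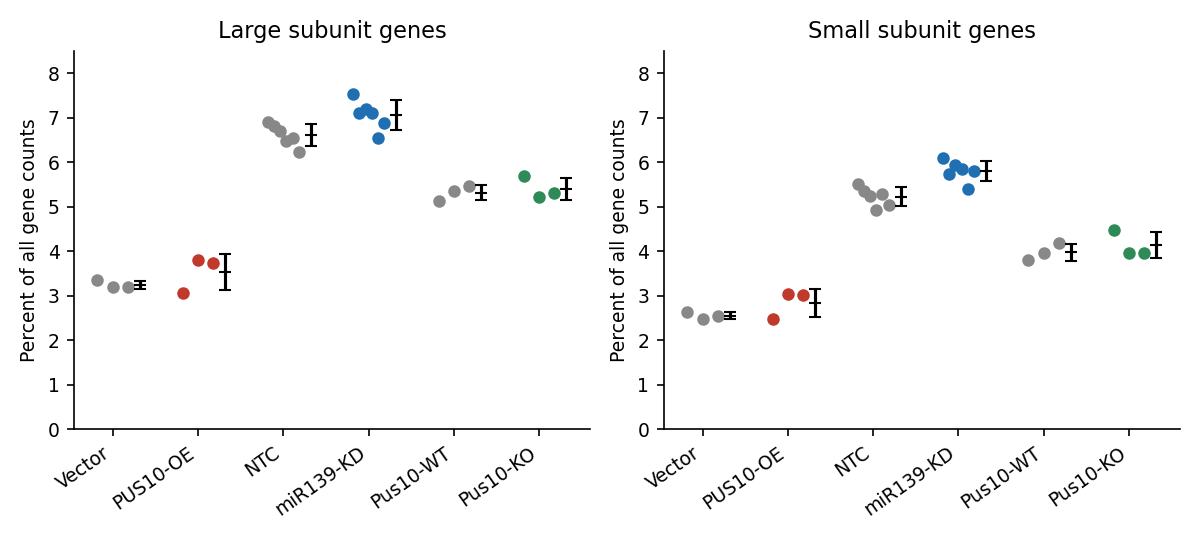
Percent of all gene counts that fell on large subunit genes (left) and small subunit genes (right), 1 point per library, with the group mean and SD as a bar beside the points. In both panels PUS10-OE replicate 1 (3.06% large, 2.48% small) sits apart from the other PUS10-OE libraries, which lie above Vector.

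With PUS10 overexpression, nearly all members had higher values than with the vector, but none passed the test. Of the 78 members tested, 75 had a positive log2 fold change, against 50.7% of all 14834 genes tested. The median was 0.23 in the large subunit and 0.22 in the small, beside 0.01 over all genes, and the median over all members equals 16.7%. No member was called by edgeR's quasi-likelihood test at an adjusted p of 0.05, and neither was any other gene (0% called). At an unadjusted p under 0.05, 27 members were higher and 0 lower, beside 4.47% of all genes higher and 3.72% lower. Members under that p in either direction numbered 16 with libraries scaled by their totals alone and 17 with a replicate block. In the fit of all 6 groups they numbered 41. DESeq2 called 1 member, Rpl26, and limma-voom 0. For these alternatives the shares of all genes are not given here.

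In 28 members all 3 PUS10-OE libraries lay above all 3 Vector libraries (17 large, 11 small), against 8.31% of all genes. A single member, Rpl24, lay wholly below, against 6.75% of all genes, and its counts were 48 or fewer in each of the 6 libraries. Among genes at least as abundant as the lowest well-counted member, 63.3% of 1833 had a positive log2 fold change and 18.9% lay wholly above the control.

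The lowest p-values in the large subunit belonged to Rpl26, Rpl34 and Rpl17. Rpl26, which lies at the rim of the peptide exit tunnel and binds the p53 message, stood at 508, 509 and 515 CPM in Vector and at 593, 715 and 651 in PUS10-OE. The log2 fold change was 0.35 (SE 0.088, adjusted p = 0.364). Rpl34 stood at 538, 511 and 541 CPM in Vector and at 615, 673 and 697 in PUS10-OE, a log2 fold change of 0.32 (SE 0.081, adjusted p = 0.364). In both genes the groups did not overlap, and replicate 1 was the lowest PUS10-OE library. Rpl17, also at the tunnel exit, went from 163 ± 6.82 to 206 ± 10.3 CPM, a log2 fold change of 0.34 (adjusted p = 0.389).

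In the small subunit, Rps25, which is needed for initiation at some internal entry sites, stood at 1258, 1202 and 1227 CPM in Vector and at 1363, 1620 and 1518 in PUS10-OE. Its log2 fold change was 0.29 (SE 0.084, adjusted p = 0.435). The groups did not overlap, and replicate 1 was again the lowest PUS10-OE library.

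The 3 stalk proteins, Rplp0, Rplp1 and Rplp2, recruit the elongation factors. Rplp0 had 3059, 2918 and 2811 CPM in Vector and 2697, 3171 and 3383 in PUS10-OE, a log2 fold change of 0.07. Rplp1 had a log2 fold change of 0.26, with replicate 1 (542 CPM) below every Vector library and the other replicates (854 and 811) above. Rplp2 had 0.34 (adjusted p = 0.542), with replicate 1 level with the highest Vector library at 261 CPM. Of the 5S particle, whose free form holds back MDM2, Rpl5 had 0.25 (adjusted p = 0.452) and Rpl11 0.23 (adjusted p = 0.70).

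Replicate 1 was the lowest PUS10-OE library for the median member, but not for every member. Rps27a, the most variable well-counted one, had 804, 1098 and 588 CPM in replicates 1, 2 and 3. The median member lay 0.04 above the Vector mean on the log2 scale in replicate 1, 0.38 in replicate 2 and 0.25 in replicate 3, and 45, 72 and 72 of the 73 well-counted members lay above it. The median coefficient of variation of these members was 14.2% in PUS10-OE, against 3.63% in Vector. Leaving out PUS10-OE replicate 1 raised the number of members at an unadjusted p under 0.05 from 27 to 61, while leaving out replicate 2 gave 15 and replicate 3 gave 19. The median log2 fold change of the members, 0.22 with all libraries, was 0.31, 0.14 and 0.19 without replicate 1, 2 and 3. Leaving out Vector replicate 1, 2 or 3 gave 14, 12 or 15, and no member was called in any of these fits. The shares of all genes under that p in these fits are not given here. The changes in number are therefore not shown to be particular to the members. The summed level of the multipotent progenitor markers was also lower, at 653 to 682 CPM against 930 to 951 with all 4 genes seen, and that of the megakaryocyte markers higher, at 249 to 449 against 153 to 180. Their part in the members' values was not tested.

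**Figure D2:**
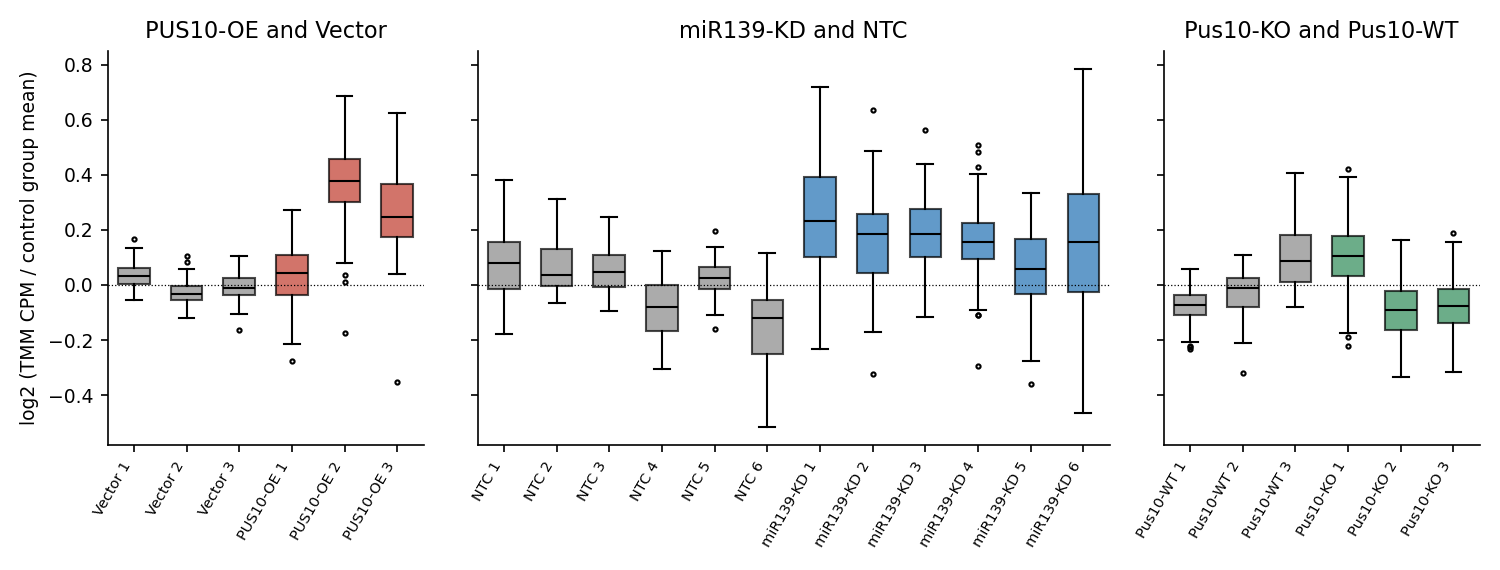
Each box shows the 73 members with at least 1000 counts in 1 library, as log2 of the normalised CPM over the mean of that experiment's control group. The line is the median, the box the quartiles, and points lie beyond 1.5 times the box. PUS10-OE replicates 2 and 3 sit highest (medians 0.38 and 0.25), and miR139-KD medians lie between 0.06 and 0.23.

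After miR139 knockdown, 12 members rose and none fell. The 12 are 15.4% of the 78 tested, beside 1.41% of all 13295 genes called higher and 1.31% called lower. They hold 5 large subunit genes (Rpl21, Rpl12, Rpl17, Rpl7a and Rpl28) and 7 small subunit genes, among them Rpsa, Rps14, Rps18, Rps15, Rps27a and Rps21. Of the 78 members, 69 had a positive log2 fold change, against 51.4% of all genes, with medians of 0.18 in the large and 0.16 in the small subunit beside 0.02 over all genes. The median over all members equals 12.6%. At an unadjusted p under 0.05, 36 members were higher, beside 8.04% of all genes, and 1 was lower, Rpl4, beside 8% of all genes. DESeq2 called 17 members and limma-voom 15, Rpl4 among them in both. Their shares of all genes called are not given here, and those above are edgeR's. In 9 members all 6 knockdown libraries lay above all 6 controls (5 large, 4 small), against 1.65% of all genes, and in 0 members below, against 1.78%. Rpl36a and Rpl27a are the 2 of these 9 that missed the threshold, at 0.26 (adjusted p = 0.0809) and 0.19 (adjusted p = 0.154).

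Rpsa, a small subunit protein also known as the laminin receptor, moved with the lowest p. Its 6 NTC libraries held 2123 to 2745 CPM (median 2550), and the 6 miR139-KD libraries 3037 to 3415 (median 3296). The log2 fold change was 0.40 (SE 0.064, edgeR adjusted p = 0.0040). Every knockdown library lay above every control.

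Rps14, whose deletion in the 5q- syndrome causes anemia in people, held 3271 to 3704 CPM in the NTC libraries (median 3450) and 3821 to 4586 after knockdown (median 4332). It rose by 0.30 (SE 0.052, adjusted p = 0.00699) without overlap, replicate 5 being the lowest knockdown library.

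Rps18 and Rps15 are neighbours in the head of the small subunit, close to the decoding site. Rps18 lay between 3008 and 3409 CPM in the controls (median 3211) and between 3484 and 4035 in the knockdown (median 3680), a rise of 0.21 (SE 0.050, adjusted p = 0.035). Rps15 rose by 0.30 (SE 0.074, adjusted p = 0.0442), from 1298 ± 138 to 1600 ± 91.1 CPM (n = 6 each). Rps18 did not overlap, while the highest control of Rps15 (1532 CPM) lay within the knockdown range, which began at 1473.

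Rps27a, made as a fusion with ubiquitin, rose by 0.24 (SE 0.060, adjusted p = 0.0449), from 1827 ± 137 to 2161 ± 92.1 CPM. Rps21 rose by 0.49 (SE 0.122, adjusted p = 0.0479), from 258 ± 47.3 to 362 ± 40.1 CPM. Both overlapped: the top control of Rps27a had 2055 CPM and the lowest knockdown library 2017, and for Rps21 these were 326 and 301.

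In the large subunit Rpl12, at the base of the stalk, rose most, by 0.54 (SE 0.11, adjusted p = 0.0184). Control values ran from 612 to 906 CPM (median 716) and knockdown values from 867 to 1240 (median 1070). A single control, replicate 1, reached into the knockdown range. Rpl21 ranged from 682 to 798 CPM against 872 to 1015 and rose by 0.34 (SE 0.066, adjusted p = 0.0141), with no overlap.

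Rpl17 stood between 566 and 654 CPM in NTC (median 626) and between 726 and 862 in miR139-KD (median 750), a rise of 0.30 (SE 0.068, adjusted p = 0.0283). Rpl7a ranged from 668 to 751 CPM against 812 to 946 and rose by 0.27 (SE 0.063, adjusted p = 0.0346). Rpl28 rose by 0.33 (SE 0.082, adjusted p = 0.048), from 701 ± 66.0 to 879 ± 80.4 CPM. Rpl17 and Rpl7a were apart in all libraries, and Rpl28 overlapped.

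**Figure D3:**
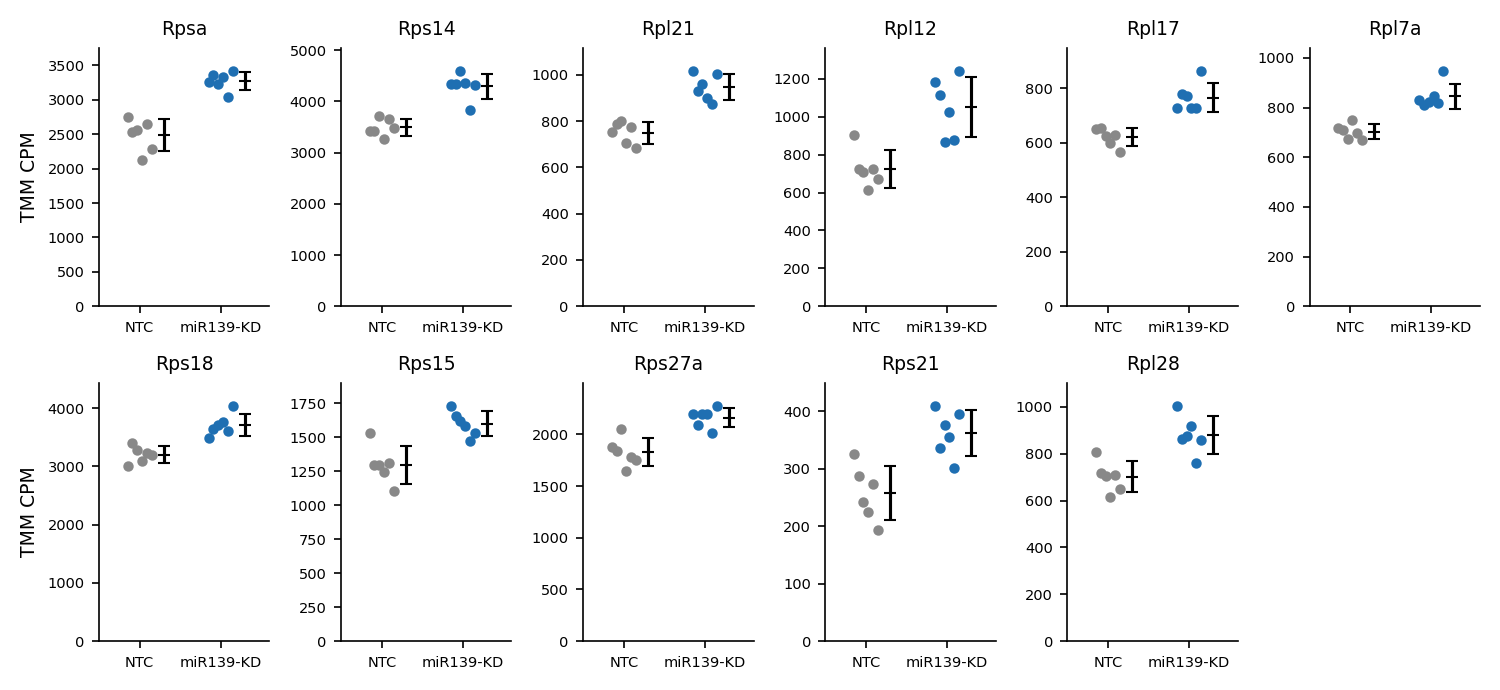
Of the 12 members that rose after miR139 knockdown, 11 are drawn, as normalised CPM in each of the 6 NTC (grey) and 6 miR139-KD (blue) libraries, with mean and SD beside the points; each vertical axis starts at 0. In 6 of the 11 panels, among them Rpsa (at most 2745 in NTC, at least 3037 in miR139-KD), the groups do not overlap.

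The calls of Rpsa, Rps14, Rpl21 and Rpl12, 4 of the 12, held whichever of the 12 libraries was left out. The number called was 4 without miR139-KD replicate 2, 5 without NTC replicates 3, 4 or 6 or miR139-KD replicates 3 or 6, and 6 without NTC replicates 2 or 5 or miR139-KD replicates 1 or 4 (in the last case with Rpl22). The same 4 were called when no filter on low counts was used. Shares of all genes called in these fits are not given here.

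Rpl4, a large protein with a loop in the exit tunnel, went the other way. Control libraries had 4218 to 5210 CPM (median 4434) and knockdown libraries 3298 to 4355 (median 3753), so the groups overlapped. Its log2 fold change of -0.26 (SE 0.074, adjusted p = 0.0832) missed the threshold here but passed it in DESeq2, in limma-voom, with genes over 10 CPM only and in the fit of all 6 groups. Rplp0 had -0.15 (adjusted p = 0.348) and Rpl3 -0.07 (adjusted p = 0.655). Of the other stalk genes Rplp1 had 0.23 (adjusted p = 0.149) and Rplp2 0.28 (adjusted p = 0.27), and of the 5S particle Rpl5 had 0.06 and Rpl11 0.12 (adjusted p = 0.865 and 0.39). Rps19, the gene most often affected in Diamond-Blackfan anemia, stood at 4786 ± 307 and 5068 ± 377 CPM, a log2 fold change of 0.08 (adjusted p = 0.559).

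The ratio of summed large to small subunit counts was 1.27 ± 0.0303 in NTC and 1.22 ± 0.0188 in miR139-KD. Every knockdown library (at most 1.238) lay below every control (at least 1.239), although the gap was small. Without Rpl4 and Rplp0, a choice made after their values were seen, the ratios were 1.07 ± 0.0192 and 1.06 ± 0.0169 and overlapped. In the other experiments the ratio overlapped, at 1.27 ± 0.0227 in Vector and 1.24 ± 0.00935 in PUS10-OE, and at 1.34 ± 0.0261 in Pus10-WT and 1.31 ± 0.0353 in Pus10-KO.

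**Figure D4:**
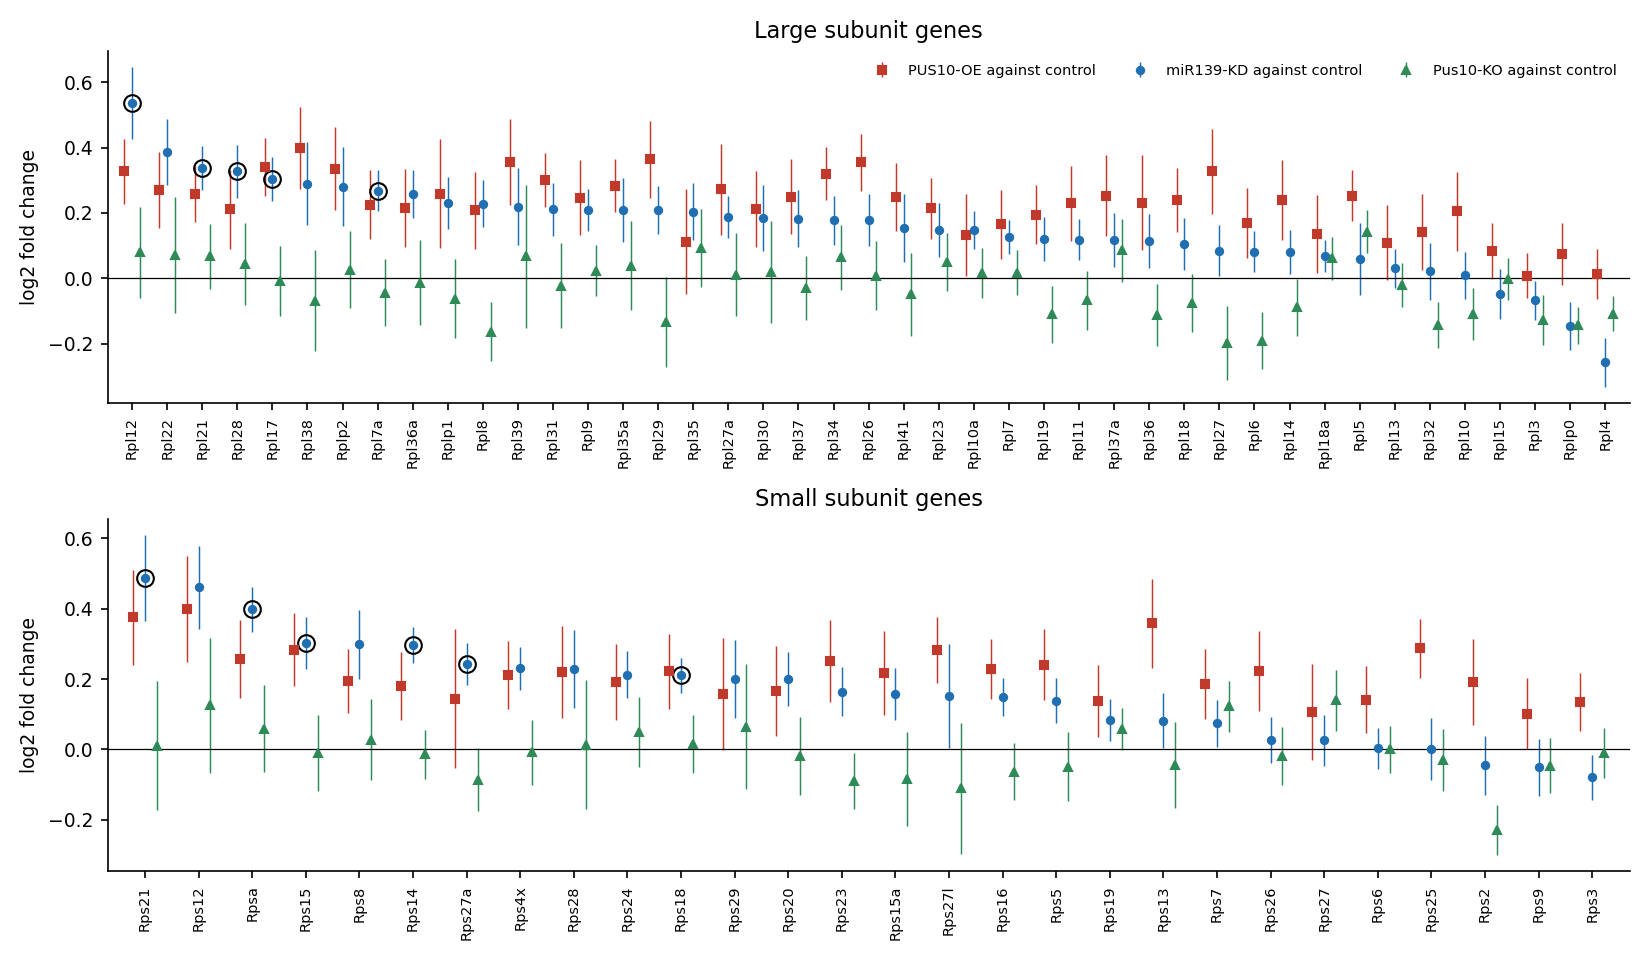
Log2 fold change with its standard error for 71 of the 73 members with at least 1000 counts, in PUS10-OE (red squares), miR139-KD (blue circles) and Pus10-KO (green triangles), each against its own control, ordered by the miR139-KD value. Black rings mark 11 of the 12 members called after miR139 knockdown; Rpl12 (0.54) is highest and Rpl4 (-0.26) lowest among the blue points.

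Grouped by position, 9 genes at the rim of the exit tunnel all had positive values after the knockdown, with a median of 0.21 and 1 of them called. Of 15 genes of the small subunit head, 13 were positive and 5 called, with a median of 0.20, where Rack1, outside the naming rule, was among the 5. These counts stand beside 15.4% of all members and 1.41% of all genes called higher, and 51.4% of all genes positive. At the entry of the message, Rps3, Rps2 and Fau had -0.08, -0.04 and 0.10, none called. Of 21 members known from Diamond-Blackfan anemia or the 5q- syndrome, 19 were positive and 2 called, Rps14 among them. In PUS10-OE the same lists had medians of 0.30, 0.22, 0.19 and 0.22 with none called, and in Pus10-KO -0.01, -0.01, -0.02 and 0.00 with none called.

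Markers of other blood cells differed between the knockdown and control libraries. The 6 megakaryocyte markers summed to 1112 to 2810 CPM in miR139-KD against 65.6 to 314 in NTC, with all 6 seen in both groups, and the 4 multipotent progenitor markers to 214 to 291 against 567 to 1023. Neutrophil and erythroid markers varied within both groups: 9 neutrophil markers summed to 1790 to 19433 CPM against 1481 to 21076, and 7 erythroid markers to 292 to 8663 against 125 to 8675. So did 8 B and plasma cell markers, all seen in both groups, at 160 to 15090 CPM (median 732) against 871 to 16724 (median 1202). The 5 T cell markers summed to 0.799 to 13.6 CPM against 41.4 to 62.1, with Cd3e, Cd3g and Trac at 0 in all 12 libraries. Cd3d was also at 0 in every miR139-KD library, so the sum there is Lck alone. Only 2 of the 5 were seen in NTC. The part of all these markers in the members' rise was not tested.

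In the Pus10-KO libraries no member was called, beside 0.0614% of all 14657 genes. DESeq2 and limma-voom also called 0, and at an unadjusted p under 0.05 edgeR had 2 members, both lower, beside 6.86% of all genes in either direction and 3.33% lower. The medians were -0.01 in each subunit and 0.00 over all genes, and 33 of 78 members had a positive log2 fold change, beside 49.7% of all genes. That number was 53 when libraries were scaled by their totals alone, and between 12 (without Pus10-KO replicate 1) and 47 (without Pus10-KO replicate 2) with a library left out. It was 16 without Pus10-WT replicate 1. Rpl5, Rps7 and Rps19, 3 members, lay wholly above the control, beside 6.86% of all genes, and 6 wholly below (Rps2, Rplp0, Rpl4, Rpl8 and the uncertain Rpl23a and Rpl36al), beside 6.79% of all genes.

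The 2 low values were those of Rps2, which lines the channel where the message enters, and of Rplp0. Rps2 had 2012, 2032 and 2031 CPM in Pus10-WT and 1774, 1607 and 1805 in Pus10-KO, a log2 fold change of -0.23 (SE 0.071, adjusted p = 0.553). Rplp0 had 5328, 5441 and 5259 CPM against 4735, 4687 and 5090, or -0.14 (SE 0.056, adjusted p = 0.664). Neither gene overlapped between the groups.

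Rpl5 lay the other way, at 2245, 2137 and 2366 CPM in Pus10-WT and 2511, 2434 and 2505 in Pus10-KO, a log2 fold change of 0.14 (adjusted p = 0.754). Rps7 had 0.12 (adjusted p = 0.869) and Rps19 0.06 (adjusted p = 0.966). Markers of other cells differed here too. B and plasma cell markers, mainly immunoglobulin, summed to 19589 to 27763 CPM in Pus10-WT (7 of 8 seen, Pax5 at 0) against 104 to 113 in Pus10-KO (5 of 8 seen, with Cd79a, Ms4a1 and Pax5 at 0). The 7 erythroid markers, all seen in both groups, summed to 263 to 283 CPM in Pus10-WT and 261 to 5630 (median 3684) in Pus10-KO. The 9 neutrophil and monocyte markers summed to 1091 to 1583 CPM (median 1439, 9 seen) and 1305 to 4037 (median 3060, 7 seen, Ngp and Ltf at 0), and both lists overlapped between the groups. Their part in the members' values was not tested.

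Set side by side, 31 members had positive log2 fold changes in all 3 experiments, 35 in PUS10-OE and miR139-KD but not in Pus10-KO, and 9 in PUS10-OE alone. The difference between effects was tested member by member in a fit of all 6 groups, and edgeR called no member in any of the 3 contrasts. Of all genes, 0.0226% were called for PUS10-OE minus Pus10-KO, 0.051% for miR139-KD minus PUS10-OE and 0.294% for miR139-KD minus Pus10-KO. DESeq2 called 1 member in the second contrast and 1 in the third, and its shares of all genes called are not given here. The effects on the members are thus not shown by edgeR to differ between the experiments, nor to be alike.

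Most members are short and abundant, so the 73 well-counted ones were split into 3 classes by transcript length. They were set beside other genes within the same length range and at least as abundant as the lowest of the 73. Only the 81 members were left out of these other genes. Ribosomal proteins outside the naming rule, and mitochondrial ones, could thus be among them. With PUS10 overexpression the short members (345 to 681 bases) had a median of 0.28, and 59 other short genes 0.27, of which 58 were positive. The middle class had 0.21 beside 0.20 for 128 other genes, and the long class 0.21 beside 0.03 for 1403. In their medians, short and middle members were thus close to other genes of their length range, and long members lay above theirs. The long class ran from 1049 to 5179 bases, and lengths inside it were not matched. Among 1739 other genes, log2 fold change fell with length (Spearman correlation -0.40). Among the 73 members the correlation was -0.30 with length and -0.59 with level. Level was not looked at in the other genes.

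After miR139 knockdown the short members had a median of 0.20 beside 0.17 for 37 other genes, the middle ones 0.17 beside 0.01 for 60, and the long ones 0.14 beside -0.13 for 326. In Pus10-KO all 3 classes lay between -0.03 and -0.01. The same correlations after the knockdown were -0.18 with length and -0.49 with level among the 73 members, and -0.09 with length among 464 other genes. In Pus10-KO they were 0.05, -0.17 and 0.11, the last among 1291 other genes. The part of transcript length, or of level, in these values was not tested.

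**Figure D5:**
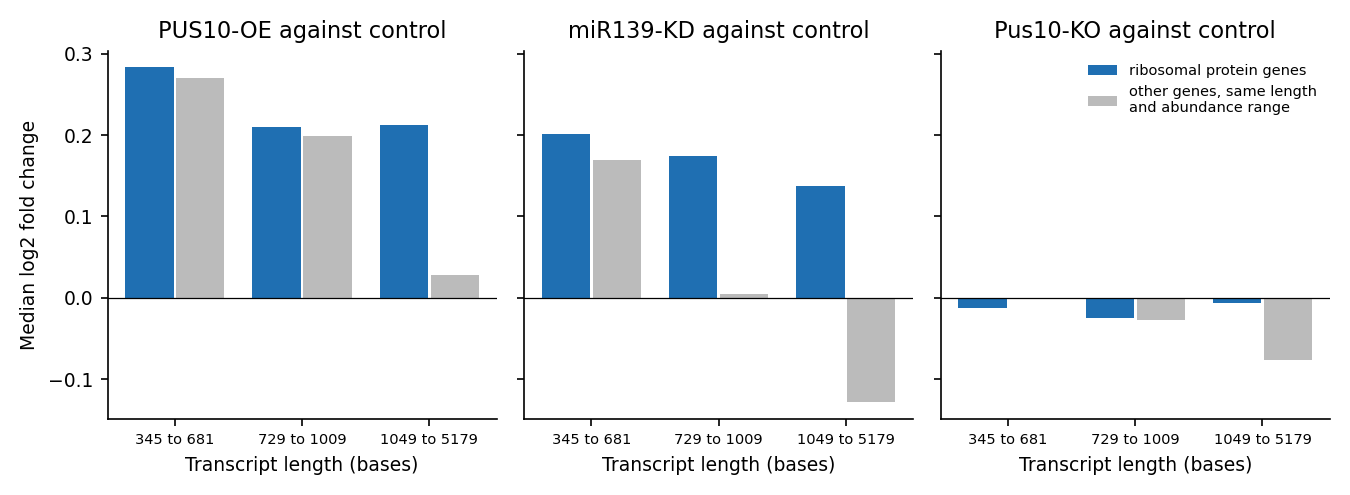
Median log2 fold change by transcript length class in each comparison, for the members (blue: 25, 24 and 24 genes) and other genes (grey). The other genes lie in the same length range and are at least as abundant as the lowest of these members. They can include ribosomal proteins outside the naming rule. Members and other short genes are alike in PUS10-OE (0.28 and 0.27), while in miR139-KD the long members (0.14) and other long genes (-0.13) lie on opposite sides of 0.

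The ribosomal proteins outside the naming rule gave these values. Rack1, a scaffold on the small subunit head, rose after miR139 knockdown by 0.32 (SE 0.069, adjusted p = 0.0273), from 2048 ± 189 to 2549 ± 166 CPM (n = 6 each) and without overlap. It had 0.25 in PUS10-OE (adjusted p = 0.451) and 0.07 in Pus10-KO. Rps3a1 had 0.15 after the knockdown (adjusted p = 0.217), 0.18 in PUS10-OE and -0.02 in Pus10-KO, and Fau had 0.10, 0.20 and -0.02 in that order. Rpl22l1, the paralog of Rpl22, had 0.24 after the knockdown (adjusted p = 0.203), and Rpl7l1 -0.32 (adjusted p = 0.12).

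Other genes of the translation machinery are given for miR139 knockdown beside the 51.4% of all genes that were positive, the 1.41% called higher and the 1.31% called lower. Of 6 elongation factor genes 3 had positive values and 1 rose, Eef1b2, an exchange factor for eEF1A, by 0.31 (SE 0.068, adjusted p = 0.0294). Of 29 initiation factor genes 13 were positive, with Pabpc1, the poly(A) binding protein, rising by 0.32 (adjusted p = 0.035) and Eif3m falling by 0.52 (adjusted p = 0.0255). Among 18 other genes whose messages carry the oligopyrimidine tract, 10 of which also stand in the elongation and initiation lists, 11 were positive with a median of 0.10. Of those 18, 4 rose: Tpt1 by 0.56 (adjusted p = 0.00900), Rack1, and Pabpc1 and Eef1b2 already counted. Another list held 17 genes of mTOR signalling and regulators of messages with the oligopyrimidine tract, with Myc and Mycn placed among them. Of these 9 were positive and 1 was called, Myc, which fell by 0.62 (adjusted p = 0.0460). None of 9 genes for dedicated chaperones and the p53 arm was called, and 3 of them were positive. In the other experiments no gene of these lists was called.

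Mitochondrial ribosomal proteins build the separate ribosome of the mitochondrion from nuclear genes, and 77 of 78 were tested. After miR139 knockdown 39 of the 77 had positive values with a median of 0.01, where the cytosolic members had 0.17. With PUS10 overexpression 68 of 77 were positive with a median of 0.18, and in 36 all PUS10-OE libraries lay above all Vector libraries, beside 50.7% and 8.31% of all genes. In Pus10-KO 16 of 77 were positive, with a median of -0.13. No gene of this list was called by edgeR in any comparison, beside the shares of all genes called given above. At an unadjusted p under 0.05, 2 were higher and 2 lower in miR139-KD (8.04% and 8% of all genes), 19 higher and 0 lower in PUS10-OE (4.47% and 3.72%), and 4 lower in Pus10-KO (3.33%).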

How the data were processed

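The authors deposited raw counts per gene, 1 file per library. The submitters' processing notes name HISAT2 2.1.0, HTSeq 0.11.2, DESeq2 and mm10, while the annotation release was not given in the sources used here. Rows that name no gene (3.70 to 12.0% no feature, 6.53 to 20.1% ambiguous) were left out of totals. Strand was not given, so overlapping genes and antisense partners cannot be told apart.

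Symbols, principal transcripts and shared coding bases came from GENCODE M21, which held 55094 of the 55487 identifiers. Each treated group was compared with its control by edgeR 4.0.16 in R 4.3.3 (filterByExpr, TMM, robust quasi-likelihood test, two-sided, Benjamini-Hochberg over all genes tested, threshold 0.05). CPM are TMM-normalised within each experiment, while shares use the total of all gene counts. Alternatives were DESeq2 1.42.0, limma-voom (limma 3.58.1), 4 other scalings, other filters, a replicate block, a fit of all 6 groups, added pseudogene counts and leaving out each library. The edgeR step was tested on simulated counts. No libraries looked duplicated (42 pairs within groups, lowest chi-square per degree of freedom 31.9).

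Members and lists were chosen with earlier results of these data known, so lists are given by counts and medians. Genes named are members called, the 3 of lowest p per subunit and direction, stalk and 5S particle genes, paralog pairs, extremes of level, and proteins outside the naming rule. A few genes that this rule names are counted but not reported here.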

Additional observations from a re-analysis of the deposited data

Results flagged for a closer look

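Values were looked at in 58 sets of 6 libraries, and 2 held a library far from the other 5. Rpl7a had 946 CPM in miR139-KD replicate 6, the highest of its group, with a gap of 0.757 of the group's range. Rps14 had 3821 CPM in miR139-KD replicate 5, the lowest, with a gap of 0.651. Both gaps exceed the 95% critical value of Dixon's test, and chance flags about 1 in 20 groups. Of the 12 fits that each left out 1 library, Rpl7a was called in 2, and not in the fit without replicate 6, while Rps14 was called in 12.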

How the results depend on the processing

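With a library left out, between 4 and 13 members were called higher after miR139 knockdown. Without a filter on low counts 4 were called, with a replicate block 3 (Rpl12, Rps14 and Rpsa). DESeq2, limma-voom, the filter of 10 CPM, the fit of all 6 groups and the replicate block each called 1 member lower, Rpl4. DESeq2 called 1 member higher in PUS10-OE, and 1 in each of the miR139-KD contrasts with PUS10-OE and Pus10-KO. Shares of all genes called in these alternatives are not given here. Without Rpl4 and Rplp0, an alternative added after seeing the data, the difference in the ratio of large to small subunit counts was -0.00898 (main -0.0508). Some log2 fold changes changed sign. In PUS10-OE with a library left out, Rpl13a ranged from -0.210 to 0.0547, Rplp0 from -0.0132 to 0.162 and Rps27 from -0.0463 to 0.244. In miR139-KD, Rps27 ranged from -0.0122 to 0.0680 and Rpl5 from -0.0236 to 0.125, and Rpl5 was -0.0026 by limma-voom. Rps10, a gene of few counts, went from -0.30 in the main fit to 0.12 with pseudogene counts added. The cause was not tested. Replicate numbers did not pair the libraries: same-numbered deviations correlated at most at 0.01, no pair of 12 over 0.1, and no library correlated best with its own number. Over all alternatives, 973 values of single genes kept their sign and side of the threshold, 92 lost the threshold, 7 newly passed it and 9 changed sign. Many of the 973 belong to genes not called in the main fit. All 92 losses fell on the 12 members called after miR139 knockdown. Rpl28 and Rps27a each lost the threshold in 14 alternatives and kept it in 9, and Rpl7a, Rps15 and Rps21 each lost it in 12 and kept it in 11. Rpl12, Rps14 and Rpsa kept it in all 23. Counting error is widest for the 8 members under 2000 counts.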
